A study of Mus musculus with 16 samples.

Results

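The regions described here are bivalent promoters and related sites in mouse embryonic stem cells (ESCs) that carried H3K27me3 under LIF and kept Suz12 in both cultures. Overlapping H3K4me3 peaks of LIF-ESCs and Myc-ESCs were merged into 36255 regions. A region was a member if it held a LIF-ESC H3K4me3 peak, had a Suz12 peak within 1000 bp in both cultures and had a LIF-ESC H3K27me3 peak within 1000 bp. Of the merged regions, 31943 held a LIF-ESC H3K4me3 peak, 3567 of these had LIF-ESC Suz12, 3099 also had Myc-ESC Suz12, and 897 met the last condition. The members were thus chosen by measured peaks of 4 lists, so their LIF-ESC H3K4me3 and H3K27me3 and their Suz12 in both cultures are given as a description. The Myc-ESC H3K27me3 list had no part in the choice, and the Myc-ESC H3K4me3 list served only to set the outline of a region.

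LIF-ESCs were R1 mouse ESCs grown with LIF at 100 units per ml, without 4-hydroxytamoxifen (OHT). Myc-ESCs were the same cells grown without LIF and with 50 nM OHT, which switches on a MycT58A-ER fusion protein that both cultures carry. Per the study's methods the fusion line was 1 clone, and both cultures grew without feeder cells, on gelatin, with serum and vitamin C. Of the 16 libraries 4 were inputs, and the other 12 made up 6 pairs, 1 pair per antibody and culture, each with a single peak list. A list per library was not used here, so replicate error is unknown and the cultures could not be tested against each other. Intervals in brackets are 95% Wilson intervals over regions and cover counting error only.

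Suz12 is a core subunit of Polycomb repressive complex 2 (PRC2), the enzyme complex that trimethylates lysine 27 of histone H3 and is linked to gene silencing. H3K4me3 marks active and poised promoters. In ESCs both marks meet at promoters rich in CpG dinucleotides, many of them of transcription factors and signals that direct embryonic lineages, and such promoters are called bivalent. A peak list of a cell population does not show whether both marks sit on the same allele or in the same cell.

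The labelled cell type was checked at start sites, taking H3K4me3 without Suz12 as the sign of an active gene. Of 10 ESC markers, 9 were in that state in LIF-ESCs and 8 were so in Myc-ESCs, and none lay at a member. Of 8 fibroblast markers, 2 were in that state in each culture. None of 6 primitive endoderm markers was active in either culture, and 4 of them (Gata4, Sox17, Pdgfra and Foxa2) lay at members. Of 6 trophoblast markers, 0 were active in LIF-ESCs and 1 (Krt7) in Myc-ESCs, and 3 (Cdx2, Hand1 and Tfap2c) lay at members.

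Some members were not independent of each other, since they shared sequence. In 46 members, over 50% of the 31-base words of the region were also found in another member. Of these, 15 lay in an array on chromosome 6 (chr6:47649780-47774046) that holds the 4.5S RNA gene Rn4.5s, 13 lay in another stretch of chromosome 6 (chr6:114533062-114610605) with no curated start site, and 8 lay in a cluster of related genes on chromosome 4 (chr4:88756119-88807356). A further pair were the Erdr1 regions of the X and Y chromosomes, which shared 92.0% and 94.8% of their words with other members. Per the study's methods only uniquely placed reads were used, and reads are hard to place between such copies, so the values of these 46 members are uncertain. They held 102361 of the 324581 bp that LIF-ESC H3K27me3 peaks covered at the members, and the 15 of the Rn4.5s array alone held 74366 bp. The array's strongest LIF-ESC H3K27me3 peaks scored between 490.6 and 1996.7, whereas the highest score among the 851 members without shared sequence was 576.9. The score is the one MACS gives, minus 10 times the log10 of the peak's p-value.

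The strongest LIF-ESC H3K27me3 peak of a member was usually poor in CpG, whereas the strongest Suz12 peak of the same member was rich in it. The sequences below are from members named in the text, and the pairs at Dlgap2 and Irx3 show this contrast. Each is the plus strand of the GRCm38 RefSeq genome, 5′ to 3′, with every CG in capitals, and where 2 are given for a member the second is a window of the same length at the middle of the strongest LIF-ESC Suz12 peak. The Esrp1 and array sequences are the middle 300 bases of peaks of 392 bp and 3493 bp. Hoxc12 encodes a Hox protein of the posterior body axis, Dlgap2 a scaffold protein of synapses, Irx3 an Iroquois homeobox factor, Sfmbt2 a Polycomb group protein and Esrp1 a splicing regulator of epithelial cells.
Hoxc12, LIF-ESC H3K27me3 peak, chr15:102936069-102936182: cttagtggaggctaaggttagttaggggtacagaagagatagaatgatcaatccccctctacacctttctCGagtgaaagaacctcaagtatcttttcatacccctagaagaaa
Dlgap2, LIF-ESC H3K27me3 peak, chr8:14097670-14097830: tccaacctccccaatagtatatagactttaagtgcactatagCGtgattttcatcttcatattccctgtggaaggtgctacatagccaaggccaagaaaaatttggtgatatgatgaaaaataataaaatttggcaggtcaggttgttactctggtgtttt
Dlgap2, LIF-ESC Suz12 peak, chr8:14096847-14097007: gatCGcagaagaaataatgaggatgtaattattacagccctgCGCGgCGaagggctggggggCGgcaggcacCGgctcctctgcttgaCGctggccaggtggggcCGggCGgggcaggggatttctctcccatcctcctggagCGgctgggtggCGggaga
Irx3, LIF-ESC H3K27me3 peak, chr8:91807938-91808106: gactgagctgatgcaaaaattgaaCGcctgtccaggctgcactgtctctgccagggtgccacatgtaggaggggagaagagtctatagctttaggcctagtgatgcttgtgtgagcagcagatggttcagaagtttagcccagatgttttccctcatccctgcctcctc
Irx3, LIF-ESC Suz12 peak, chr8:91799462-91799630: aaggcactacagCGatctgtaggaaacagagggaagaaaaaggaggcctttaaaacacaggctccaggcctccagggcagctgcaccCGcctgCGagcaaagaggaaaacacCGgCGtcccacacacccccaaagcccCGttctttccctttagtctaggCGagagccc
Sfmbt2, LIF-ESC H3K27me3 peak, chr2:10369112-10369316: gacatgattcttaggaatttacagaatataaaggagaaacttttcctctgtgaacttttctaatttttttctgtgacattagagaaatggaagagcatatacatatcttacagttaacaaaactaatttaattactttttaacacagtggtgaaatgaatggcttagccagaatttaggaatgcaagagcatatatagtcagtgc
Esrp1, LIF-ESC H3K27me3 peak, chr4:11391129-11391428: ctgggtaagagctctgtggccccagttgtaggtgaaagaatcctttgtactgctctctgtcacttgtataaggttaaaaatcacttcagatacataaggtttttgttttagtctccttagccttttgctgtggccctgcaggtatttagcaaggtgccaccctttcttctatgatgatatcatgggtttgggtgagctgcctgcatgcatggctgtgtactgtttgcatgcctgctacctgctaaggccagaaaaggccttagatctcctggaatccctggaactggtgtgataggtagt
Array on chromosome 6, LIF-ESC H3K27me3 peak, chr6:47746296-47746595: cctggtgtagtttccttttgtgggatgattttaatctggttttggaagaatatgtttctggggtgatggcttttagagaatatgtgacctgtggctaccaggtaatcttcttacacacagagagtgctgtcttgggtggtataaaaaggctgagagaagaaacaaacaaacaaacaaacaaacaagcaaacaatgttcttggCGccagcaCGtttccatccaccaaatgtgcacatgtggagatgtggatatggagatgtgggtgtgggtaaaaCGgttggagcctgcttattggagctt

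The Hoxc12 H3K27me3 peak, centred at -700 bp from the start site and outside the gene, had 1 CpG. The Dlgap2 pair had 1 CpG at the H3K27me3 peak and 11 at the Suz12 window, both within an intron, and the Irx3 pair had 1 and 7. At Rny3, a member whose sequences are not printed, the order was reversed, with 11 CpG at the H3K27me3 window and 9 at the Suz12 window. The Sfmbt2 and Esrp1 peaks lay outside the genes, centred at -3222 and -4496 bp from the start sites. The Sfmbt2 peak had 0 CpG, as did the printed 300 bases of the Esrp1 peak. The array sequence, outside any curated gene, had 3 CpG in 300 bases. Over all 897 members, a window of 150 bp at the strongest LIF-ESC H3K27me3 peak had a median of 1.33 CpG per 100 bp (quartiles 0.667 and 2.00), against 4.00 (2.00 and 6.67) at the strongest LIF-ESC Suz12 peak. The H3K27me3 window had fewer CpG than the Suz12 window in 683 members (76.1%, 73.2 to 78.8), more in 120 and as many in 94. In Myc-ESCs the medians were again 1.33 at H3K27me3, in the 803 members with a peak, and 4.00 at Suz12.

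The position of the peaks followed the same split. Among 615 members with a protein-coding start site inside the region, H3K4me3 covered the start site of nearly all, with a highest share of 97.9% at 175 bp in LIF-ESCs and 99.2% at 275 bp in Myc-ESCs. Suz12 was most frequent just downstream, at 68.0% of members at 875 bp in LIF-ESCs and 82.9% at 775 bp in Myc-ESCs. At 25 bp from the start site, H3K27me3 peaks covered 0.976% of members in LIF-ESCs and 1.79% in Myc-ESCs. They were most frequent at 1275 bp in LIF-ESCs (7.48%) and at 1575 bp in Myc-ESCs (25.9%). The reference sequence of the same members held 9.66 CpG per 100 bp at 25 bp from the start site, 3.59 at 1275 bp and 2.76 at 1575 bp. In both cultures the listed H3K27me3 peaks thus lay to either side of the CpG-rich centre, most often downstream. These were short pieces. LIF-ESC peaks within reach of members had a median length of 155 bp, and 1.41% of them were at least 1000 bp long. For the Myc-ESC peaks the values were 180 bp and 1.33%. Position and covered bases therefore describe the listed peaks, and the full extent of the mark was not tested.

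**Figure D1:**
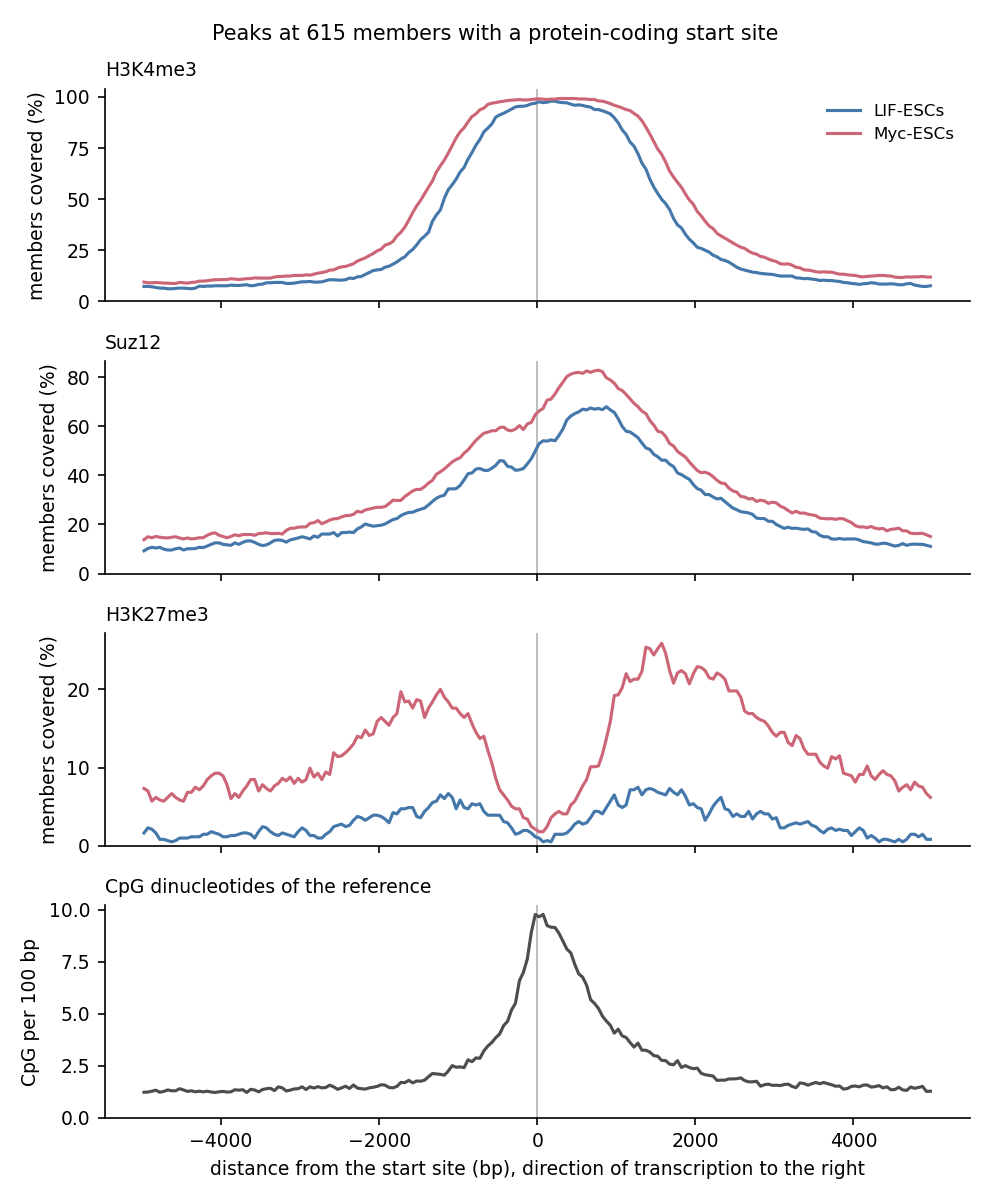
Share of 615 members covered by a peak (percent, in bins of 50 bp) against the distance from the start site in bp, for H3K4me3, Suz12 and H3K27me3 in LIF-ESCs (blue) and Myc-ESCs (red), and CpG per 100 bp of the reference in the same bins. H3K27me3 was at 0.976% and 1.79% at 25 bp from the start site, where CpG was at 9.66 per 100 bp, and reached 7.48% and 25.9% further downstream.

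The reach and the peak caller's threshold both set how many regions are members. The LIF-ESC H3K27me3 peak overlapped the region in 717 members, lay up to 500 bp away in 127 and over 500 bp away in 53, the farthest at 996 bp. Just outside, 34 regions with Suz12 in both cultures had their nearest LIF-ESC H3K27me3 peak between 1000 and 1500 bp away, the first at 1006 bp. The strongest LIF-ESC H3K27me3 peak scored under 100 in 779 members (86.8%), and the lowest scored 50.3. The LIF-ESC H3K27me3 list was also the shortest of the 6, with 3120 peaks against 16717 in Myc-ESCs, while Suz12 had 11305 and 13907 peaks and H3K4me3 32469 and 30345.

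Most members also carried H3K27me3 in Myc-ESCs. A Myc-ESC peak lay within 1000 bp of 803 members (89.5%, 87.3 to 91.4), against 9.47% of all merged H3K4me3 regions. Most of the latter had no Suz12. Among regions that, like the members, had LIF-ESC H3K4me3 and Suz12 in both cultures but were no members, the share was 62.7% (1380 of 2202). Without the 46 members that share sequence the share was 89.1% (758 of 851). The Myc-ESC list is longer than the LIF-ESC list. With it limited to its 3120 highest-scoring peaks, which all score at least 103.8, the share was 54.5% (51.2 to 57.7). In the full lists, a LIF-ESC peak overlapped a Myc-ESC peak in 534 of the 803 members with a Myc-ESC peak (66.5%). Of the 1423 LIF-ESC H3K27me3 peaks at members, 57.9% overlapped a Myc-ESC peak, and of the 3528 Myc-ESC peaks, 23.6% overlapped a LIF-ESC peak.

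H3K27me3 covered more bases, in more peaks, at most members in the Myc-ESC list. Covered bases, counted in the region with 1000 bp on either side, had a median of 180 bp in LIF-ESCs against 798 bp in Myc-ESCs, and the median ratio of Myc-ESCs to LIF-ESCs was 2.99 (quartiles 1.22 and 5.38). They were more in Myc-ESCs in 716 members, less in 177 and equal in 4. At least 2-fold more were covered in 578 members (64.4%, 61.2 to 67.5), against a background of 54.8% among all 1297 regions with a LIF-ESC H3K27me3 peak, of which the members are part. At least 2-fold less were covered in 105 members (11.7%), against 22.3%. Among the 400 such regions that are no members the shares were 33.2% and 46.0%. A single LIF-ESC H3K27me3 peak was in reach of 552 members (61.5%), whereas 5 or more Myc-ESC peaks were in reach of 358 (39.9%). Where LIF-ESCs had a single short peak, 1 further peak of like length in Myc-ESCs was enough for 2-fold more bases.

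This direction turned with the length of the lists. With the Myc-ESC H3K27me3 list limited to as many peaks as the LIF-ESC list, at least 2-fold more bases were covered in 284 members (31.7%), at least 2-fold less in 420 (46.8%), and the median ratio was 0.836. The lists do not show how deeply the libraries were sequenced, so which of the limits makes the cultures comparable is unknown. A direction for H3K27me3 at the members therefore holds only for the lists as deposited.

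**Figure D2:**
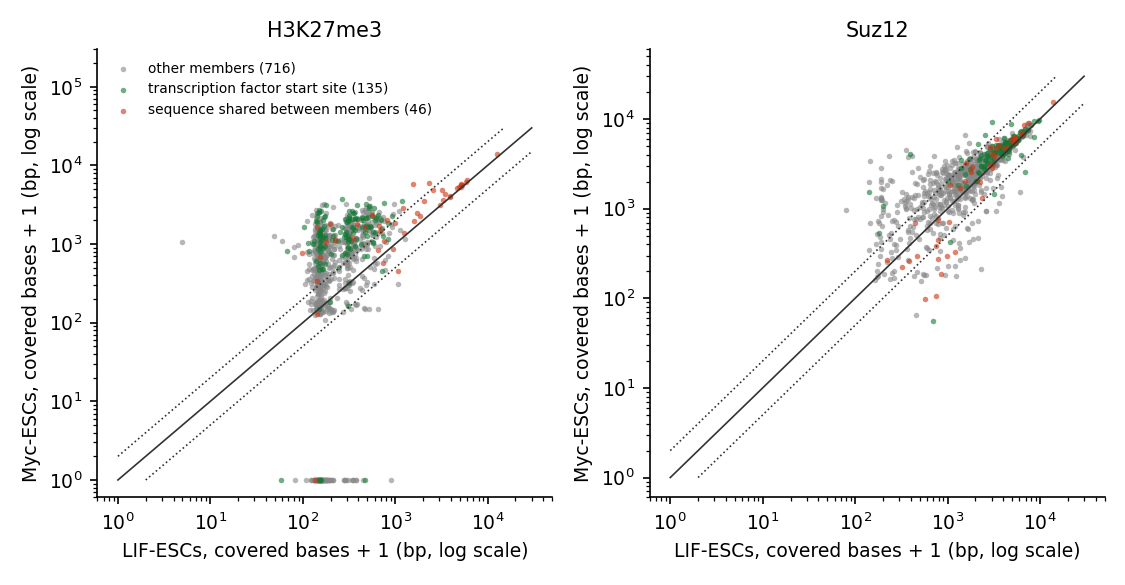
Covered bases plus 1 of each member (region with 1000 bp on either side, log scales) in Myc-ESCs against LIF-ESCs, for H3K27me3 on the left and Suz12 on the right. The solid line marks equal values and the dotted lines a 2-fold difference. Of 897 members, 716 lay above the solid line for H3K27me3, the 94 without a Myc-ESC peak lie along the bottom, and the members with shared sequence (red) hold the highest LIF-ESC values.

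Suz12 covered bases differed less between the cultures. Their median was 1858 bp in LIF-ESCs against 2566 bp in Myc-ESCs, with a median ratio of 1.24 (quartiles 1.04 and 1.70). At least 2-fold more were covered in 161 members (17.9%, 15.6 to 20.6), against 26.2% of all 3434 regions with Suz12 in both cultures, and at least 2-fold less in 43 (4.79%), against 4.46%. Of the 3099 regions with LIF-ESC H3K4me3 and Suz12 in both cultures, 1380 had H3K27me3 in Myc-ESCs alone and 822 had it in neither culture. In the former, the share with at least 2-fold more Suz12 was 32.1%, and in the latter it was 29.9%. The LIF-ESC median of covered bases was 1082 bp in the former and 554 bp in the latter, below that of the members. Covered bases cannot exceed the counted stretch, so members with much LIF-ESC Suz12 had less room for 2-fold more. Hoxd10, for instance, had 4449 bp in both cultures, its whole stretch. The part of this limit in the members' lower share was not tested. Myc-ESC H3K27me3 was found in 77.3% of the members in the lowest quartile of LIF-ESC Suz12 bases (71.4 to 82.3) and in 97.8% of those in the highest, with 87.9% and 95.1% between them.

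H3K4me3 was kept at nearly all members. A Myc-ESC H3K4me3 peak overlapped 865 members (96.4%), against 80.5% of all regions with a LIF-ESC H3K4me3 peak. The share was 98.6% in regions with H3K27me3 in Myc-ESCs alone and 97.9% in those without H3K27me3. Covered H3K4me3 bases had a median of 2647 bp in LIF-ESCs against 3269 bp in Myc-ESCs, with a median ratio of 1.20. The same ratio was 1.17 and 1.20 in the Suz12-bound regions that are no members and 1.01 in regions without Suz12. In Myc-ESCs, 775 members had both H3K4me3 and H3K27me3, 28 had H3K27me3 alone, 90 had H3K4me3 alone and 4 had neither. Of the 32 members without Myc-ESC H3K4me3, 12 shared sequence, 8 of them in the Rn4.5s array. Without the 46 members of shared sequence 97.6% had the mark.

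Among members outside shared sequence that had a start site and H3K27me3 without H3K4me3 in Myc-ESCs were several regulators of development, named here after their values were seen. At Lhx2, a LIM homeobox factor of the forebrain and eye, H3K4me3 covered 1234 bp in LIF-ESCs against 0 bp in Myc-ESCs, while H3K27me3 covered 152 bp and 1456 bp. At Gsx2, a homeobox factor of the ventral forebrain, H3K4me3 covered 2684 bp and 0 bp and H3K27me3 137 bp and 1987 bp. At Otp, of the hypothalamus, these were 1715 bp and 0 bp and 180 bp and 1137 bp, and at Hoxa13, of the limb tip and hindgut, 1227 bp and 0 bp and 175 bp and 941 bp. Lhx2 has a second member, which kept H3K4me3, with 3230 bp and 3552 bp. Suz12 covered more bases in Myc-ESCs at all 4 of these members without Myc-ESC H3K4me3, as it did at 723 of all 897 members. At Gsx2, for instance, it covered 3945 bp and 4684 bp. Nfix, a factor of muscle and brain, had this pattern at 2 members, with H3K4me3 at 1550 bp and 1462 bp in LIF-ESCs and 0 bp at both in Myc-ESCs. Most of these LIF-ESC H3K4me3 peaks scored low, at 55.5 for Lhx2, 90.6 for Otp, 76.6 for Hoxa13 and 56.8 and 109.7 for Nfix. Gsx2 had 375.8, the median of all members was 455 and the lowest score of the list was 50.00. For peaks so near the threshold, 0 bp in Myc-ESCs says only that the caller listed none.

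Transcription factors of development made up a larger share of the members than of the other Suz12-bound regions, whereas ligands, antagonists and receptors did not. A start site of a curated RefSeq transcript of a protein-coding gene lay within 1000 bp of 629 members (70.1%), which gave 642 of 21000 protein-coding genes (3.06%). Another 39 members had a start site of a non-coding gene alone, and 229 had none. Homeobox genes, which encode transcription factors that set position and cell identity, had start sites at 70 members (7.80%, 6.22 to 9.74), against 3.41% of the regions with H3K27me3 in Myc-ESCs alone and 0.608% of those without H3K27me3. All listed transcription factor families together had start sites at 135 members (15.1%, 12.9 to 17.5), against 6.81% and 3.28%. Ligands had start sites at 2.01% of members, against 2.17% and 1.46%, antagonists at 0.446%, against 0.435% and 0.487%, and receptors at 1.00%, against 1.67% and 0.730%. The lists were not complete, since Otp, a homeobox gene at a member, was on none of them and is not in these counts. The lists were made with earlier results of these data known, so these shares are descriptions.

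By family, members held 20 of 39 Hox genes, 48 of 122 other homeobox genes, 5 of 9 Pax genes, 2 of 6 Gata genes, 19 of 62 basic helix-loop-helix genes, 11 of 44 forkhead genes, 5 of 20 Sox genes, 4 of 17 T-box genes, 15 of 63 zinc finger genes and 4 of 42 nuclear receptors. All 20 Hox genes had Myc-ESC H3K27me3 at their member, as did 46 of the 48 other homeobox genes, against 89.5% of all members. Of the 19 Hox genes at no member, 8 lay at regions with H3K27me3 in Myc-ESCs alone and 5 at no H3K4me3 region. In the HoxA cluster 11 members lay side by side, each at most 20000 bp from the next. Of 85 cytosolic ribosomal protein genes, which every cell uses, none lay at a member, and of 17 factors of naive pluripotency 1 did, Dppa3.

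Of the 135 transcription factor members, 119 (88.1%) had at least 2-fold more H3K27me3 bases in the Myc-ESC list, against 64.4% of all members. Hoxd11, a Hox gene of limb and trunk, had 625 bp in LIF-ESCs against 2125 bp in Myc-ESCs, with Suz12 at 4184 bp and 4194 bp. Hoxa5, of the cervical and thoracic axis, had 516 bp and 2903 bp of H3K27me3, and Lhx4, a LIM homeobox factor of the pituitary and motor neurons, had 659 bp and 2321 bp. Sox1 and Sox9, factors of the neural plate and of cartilage, had 748 bp and 709 bp in LIF-ESCs and 3320 bp and 2000 bp in Myc-ESCs. All 5 had at least 2-fold more H3K27me3 bases in Myc-ESCs. Lmx1a and Otx2, which had more LIF-ESC bases than Lhx4, did not, with 844 bp and 1171 bp at Lmx1a and 718 bp and 456 bp at Otx2.

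At least 2-fold more was also seen at factors of other lineages. Gata4, of the heart and endoderm, had 578 bp of H3K27me3 in LIF-ESCs against 1435 bp in Myc-ESCs, Foxa2, of the definitive endoderm, 509 bp and 1624 bp, and Sox17, which specifies endoderm, 368 bp and 2148 bp. Hand2, of the heart and limb, had 433 bp and 2147 bp, and Atoh1, of sensory hair cells and the cerebellum, had 924 bp and 2288 bp. Pax5, of B cells, had 606 bp and 2012 bp, and Insm1, of endocrine and neural precursors, had 835 bp and 1849 bp. Not all had 2-fold more, as at Egr3, with 744 bp and 1278 bp, and Hes7, with 575 bp and 1029 bp. Pax8, of the thyroid and kidney, had 149 bp and 148 bp. At Phox2a, of autonomic neurons, H3K27me3 covered 495 bp in LIF-ESCs against 710 bp in Myc-ESCs, and Suz12 699 bp and 55 bp.

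Set by kind of gene, members with a homeobox start site had a median of 290 bp of H3K27me3 in LIF-ESCs against 1408 bp in Myc-ESCs, and 62 of 70 (88.6%, 79.0 to 94.1) had at least 2-fold more. For the other listed transcription factors the medians were 306 bp and 1272 bp, with 57 of 65 (87.7%) at least 2-fold higher. Members with protein-coding genes outside all lists had 167 bp and 604 bp, with 248 of 426 (58.2%, 53.5 to 62.8) at least 2-fold higher. The difference between kinds was also seen with the Myc-ESC H3K27me3 list limited to the length of the LIF-ESC list. A limited-list peak was then found at 83.7% of the transcription factor members (76.6 to 89.0) and 43.3% of members with another protein-coding gene (39.0 to 47.7), and 57.0% and 25.5% had at least 2-fold more bases. LIF-ESC Suz12 covered a median of 4242 bp at homeobox members and 1530 bp at those with genes outside all lists, so the kinds also differed in Suz12, and its part in the difference was not tested.

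**Figure D3:**
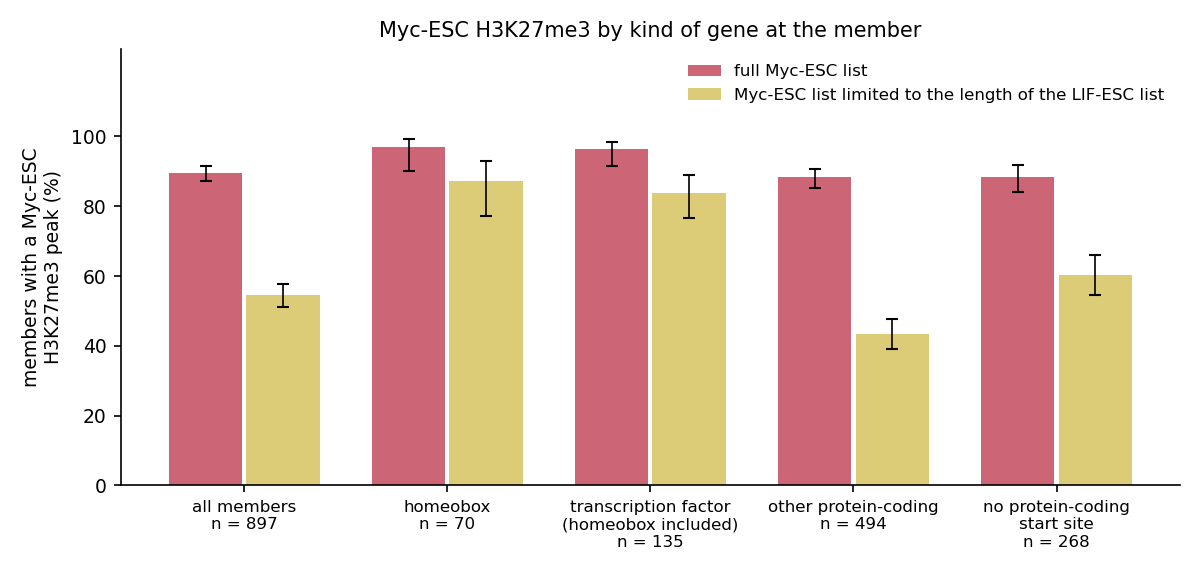
Share of members with a Myc-ESC H3K27me3 peak within 1000 bp (percent), by the kind of gene whose start site lies at the member, with the full Myc-ESC list (red) and with the list limited to 3120 peaks (yellow). Bars start at 0 and error bars are 95% Wilson intervals. With the limited list the share was 87.1% for homeobox members and 43.3% for members with other protein-coding genes.

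Ligands, antagonists and receptors of developmental signals were fewer. Members held 5 of 19 Wnt genes, 6 of 22 Fgf genes, 3 of 8 hedgehog and Notch ligands, 3 of 35 semaphorin, ephrin, Slit and netrin genes and 1 of 31 ligands of the TGF-beta and Bmp family. Shh, the hedgehog ligand of the neural tube and limb, had 306 bp of H3K27me3 in LIF-ESCs against 1865 bp in Myc-ESCs. Bmp2, a bone morphogenetic protein, had 175 bp and 1167 bp. Among Wnt ligands, Wnt9b had 238 bp and 1721 bp and Wnt7b 316 bp and 1286 bp, whereas Wnt3 had 340 bp and 320 bp and Wnt2b 180 bp and 162 bp. Wnt11 had 142 bp and 761 bp, so that 3 of the 5 Wnt genes had over 2-fold more bases in Myc-ESCs and the other two slightly fewer, a share near the 64.4% of all members.

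Of 18 Wnt antagonists, 2 lay at members. Dkk1, which blocks the Wnt co-receptors Lrp5 and Lrp6, had 141 bp of H3K27me3 in LIF-ESCs against 770 bp in Myc-ESCs, with Suz12 at 745 bp and 2573 bp. Frzb, a secreted Wnt-binding protein, had 175 bp and 1740 bp. Of 15 Bmp and Nodal antagonists, Nog and Chrdl2 lay at members, with 153 bp and 151 bp in LIF-ESCs and 920 bp and 1257 bp in Myc-ESCs. All 9 receptors at members, of 71 listed, had a Myc-ESC H3K27me3 peak, with an interval of 70.1% to 100% that holds the 89.5% of all members. Fzd1, a Wnt receptor, had 137 bp and 513 bp, and Ptch1, the hedgehog receptor, 446 bp and 1508 bp. Of the genes whose chromatin the study names, Sox17, Fzd1 and Dkk1 lay at members, Sfrp1 and Sfrp5 had H3K27me3 in Myc-ESCs alone, and Apcdd1, Fzd7 and Socs3 lacked Suz12 in at least 1 culture.

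Genes of excitable and adherent cells were also present, with 28 of 260 ion channels and neurotransmitter receptors and 8 of 96 cadherins and protocadherins. They were less frequent at members than at regions with H3K27me3 in Myc-ESCs alone, at 3.23% against 4.49% for the former list and 0.892% against 2.32% for the latter. In Suz12-bound regions without H3K27me3 the shares were 2.68% and 0.487%, below those of the members. Cacnb4, a calcium channel subunit, had 461 bp of H3K27me3 in LIF-ESCs against 1015 bp in Myc-ESCs. Cdh11, a mesenchymal cadherin, had 383 bp and 1756 bp. Of 30 listed subunits of Polycomb repressive complexes 1 and 2, 5 lay at members and 21 at regions without Suz12. The former included genes of complex 1, among them Bmi1 (757 bp and 1942 bp), Cbx2 (312 bp and 749 bp), Cbx8 (223 bp and 1681 bp) and Pcgf5 (138 bp and 273 bp).

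The 10 members with the most LIF-ESC H3K27me3 bases all lay in the Rn4.5s array, with 3952 to 12759 bp in LIF-ESCs and 4143 to 14107 bp in Myc-ESCs, and ratios of 1.03 to 1.14. Outside shared sequence, in a ranking chosen after the values were seen, the highest member with a gene was Irx3 with 1183 bp and 3501 bp, after a member on chromosome 8 without a start site that had 1265 bp and 1162 bp. Snx25, a sorting nexin, had 1103 bp and 2666 bp.

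Increases in H3K27me3 bases were largest at the Erdr1 regions of the X and Y chromosomes, with 1545 bp and 5858 bp on the X and 2350 bp and 6059 bp on the Y. These are also the longest members, at 23764 and 25060 bp. The next was Hoxc12, where H3K27me3 went from 266 bp in 2 peaks to 3751 bp in 18 peaks, Suz12 from 4812 bp to 8826 bp, and H3K4me3 in the opposite direction from 7736 bp to 2461 bp. Sfmbt2 had 517 bp and 3816 bp, Dlgap2 161 bp and 3165 bp, and 9630013D21Rik, a non-coding RNA gene, 167 bp and 3185 bp. Gbx2, a homeobox gene of the midbrain-hindbrain boundary that is also a target of LIF signalling, had 177 bp and 3175 bp of H3K27me3. It also had the largest increase of Suz12, from 2996 bp to 9153 bp, while its H3K4me3 went from 10049 bp to 6664 bp. Cdx2, the trophectoderm factor, had 386 bp and 3171 bp.

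The Suz12 increases that followed Gbx2 were at Ntn1, an axon guidance cue, from 1539 bp to 6652 bp, at Rnf220, a ubiquitin ligase, from 355 bp to 4488 bp, and at Pou4f2, a factor of retinal ganglion cells, from 2556 bp to 6599 bp. H3K27me3 went from 290 bp to 2093 bp, from 152 bp to 1392 bp and from 149 bp to 2676 bp at the same members. These members were chosen for their Suz12 increase, and H3K27me3 covered more bases in Myc-ESCs at 716 of all 897 members.

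Decreases were smaller in size, but no decrease can exceed a member's LIF-ESC bases, which had a median of 180 bp. Increases were limited only by the length of the counted stretch. Esrp1 went from 1076 bp to 306 bp of H3K27me3 and had the largest decrease of Suz12, from 6116 bp to 1543 bp, while its H3K4me3 went from 5264 bp to 7592 bp. Dppa3, an oocyte and germ cell factor expressed in naive ESCs, went from 649 bp to 150 bp, with Suz12 from 1545 bp to 283 bp. Bcl11a, a zinc finger factor of blood and brain, had 470 bp in LIF-ESCs and no Myc-ESC peak, with Suz12 from 6828 bp to 2566 bp. Dusp4, a phosphatase of MAP kinases, had 450 bp, and Tbc1d9, a Rab GTPase-activating protein, 378 bp in LIF-ESCs, and both lacked a Myc-ESC peak. The largest decrease of all, from 906 bp to 0 bp, was at a member without a start site on chromosome 7 (chr7:143437387-143439796).

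Fgf5, a ligand of the epiblast, had 123 bp of H3K27me3 in LIF-ESCs and none in Myc-ESCs, its Suz12 went from 3559 bp to 1169 bp, and its H3K4me3 from 2173 bp to 6230 bp. Otx2, a homeobox factor of the epiblast and forebrain at the third longest member (19841 bp), went from 718 bp to 456 bp of H3K27me3 and from 8670 bp to 6342 bp of Suz12, with H3K4me3 from 13991 bp to 19841 bp. Fgf5 was named by rule for its Suz12 and Otx2 for its length. Zic2 and Pou3f1, also expressed in the epiblast, had more H3K27me3 in the Myc-ESC list and were added after their values were seen. H3K27me3 covered 495 bp and 1258 bp at Zic2 and 460 bp and 710 bp at Pou3f1. In the other marks Pou3f1 went the way of Fgf5 and Otx2, with Suz12 from 3194 bp to 1467 bp and H3K4me3 from 5009 bp to 7513 bp. At Zic2, Suz12 went from 7983 bp to 8505 bp and H3K4me3 from 5928 bp to 10141 bp.

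**Figure D4:**
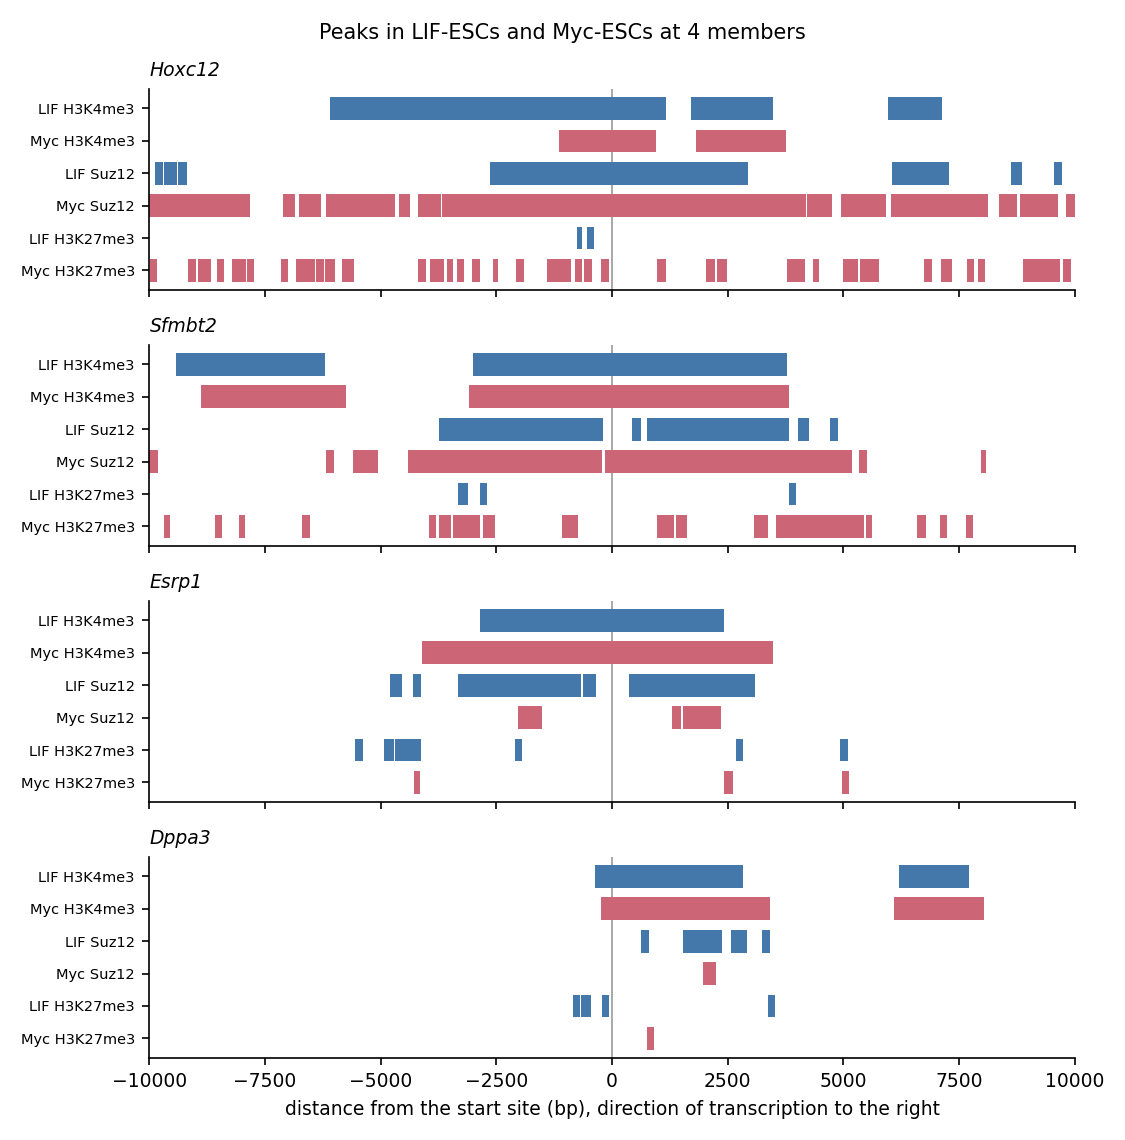
Peaks of the 6 lists within 10000 bp of the start site (distance in bp, direction of transcription to the right) at Hoxc12, Sfmbt2, Esrp1 and Dppa3, in blue for LIF-ESCs and red for Myc-ESCs. Myc-ESC H3K27me3 and Suz12 spread to both sides at Hoxc12 (3751 bp and 8826 bp at the member) and shrink at Esrp1 (306 bp and 1543 bp).

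The 94 members without a Myc-ESC H3K27me3 peak had less Suz12 than the others in both cultures. Their Suz12 median was 878 bp in LIF-ESCs and 977 bp under Myc, whereas the 803 with a peak had 2003 bp and 2796 bp. A single LIF-ESC H3K27me3 peak was in reach of 83 of the 94 (88.3%, 80.2 to 93.3), against 58.4% of the others. A listed transcription factor start site lay at 5 of them (5.32%), against 16.2%. H3K4me3 bases were similar, with medians of 2604 bp and 3200 bp against 2650 bp and 3272 bp. The 5 with the highest LIF-ESC scores were Tbc1d30 (154.6), the chromosome 7 member above (126.4), Frs2 (124.5), an adaptor of Fgf receptors, Fam89a (109.2) and Ube2ql1 (102.6). The 4 members with neither mark in Myc-ESCs, named after their values were seen, were Irx4, of the heart ventricle, and 3 without a start site on chromosomes 9, 6 and 3.

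In base composition the members were close to other Suz12-bound regions. CpG observed over expected, in a window of 1000 bp at the middle of the region, had a median of 0.716 (quartiles 0.604 and 0.833). It was 0.731 in regions with H3K27me3 in Myc-ESCs alone, 0.682 in those without H3K27me3, 0.436 in regions without Suz12 and 0.469 in all merged regions. GC content had a median of 62.1% in members and 52.6% in regions without Suz12. The sequence CACGTG, the E-box that Myc binds with Max and that reads the same on both strands, was found in the window of 18.8% of members (16.4 to 21.5) and of 18.9% of all merged regions.

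The members were spread unevenly over the chromosomes. Of the 3099 regions with LIF-ESC H3K4me3 and Suz12 in both cultures, 28.9% were members. The share was 50.5% on chromosome 8 (97 of 192, 43.5 to 57.5), 40.2% on chromosome 6 and 38.3% on chromosome 2, and it was 11.8% on chromosome 9, 7.89% on chromosome 16 and 5.36% on the X (3 of 56, 1.84 to 14.6). On chromosome 6, 28 of the 82 members shared sequence, and on chromosome 8 none did. Myc-ESC H3K27me3 at the same regions was less uneven and also lowest on the X, at 72.9% on chromosome 8, 77.5% on chromosome 6, 52.6% on chromosome 16 and 35.7% on the X. Chromosome 8 held 17.1% of all H3K27me3 peaks called in LIF-ESCs and 9.90% of those called in Myc-ESCs, with 5.91% and 6.50% of the Suz12 peaks. Without chromosome 8, 90.0% of the members had a Myc-ESC H3K27me3 peak, and 27.5% of the regions were members. What sets the LIF-ESC share of a chromosome was not tested.

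**Figure D5:**
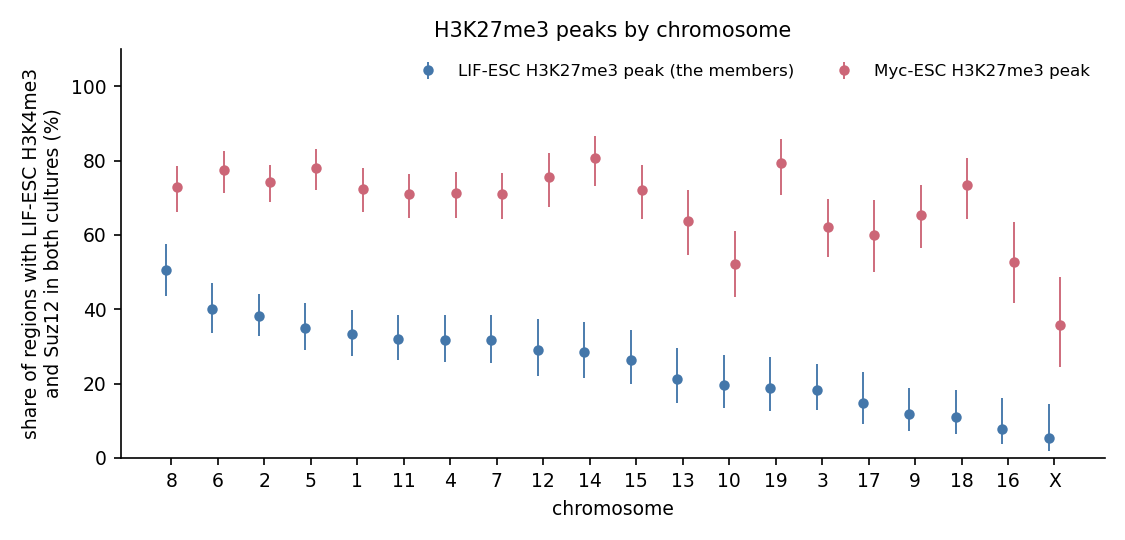
Share of the regions with LIF-ESC H3K4me3 and Suz12 in both cultures that had a H3K27me3 peak within 1000 bp (percent), by chromosome, in LIF-ESCs (blue, the members) and Myc-ESCs (red), with 95% Wilson intervals, in order of the LIF-ESC share. The LIF-ESC share ran from 50.5% on chromosome 8 to 5.36% on the X. The Y, with 2 regions, is not drawn.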

How the data were processed

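Chromatin immunoprecipitation sequencing of Suz12, H3K27me3 and H3K4me3 was compared between LIF-ESCs and Myc-ESCs. The authors sequenced the libraries on a HiSeq2000 and, per the labels, aligned reads with Bowtie2 2.2.3 and called peaks with MACS 1.4.2 on GRCm38 (mm10). Each deposited list gives peak coordinates and the MACS score, which is 10 times the -log10 of the p-value. Per the study's methods, reads with a unique best match and at most 2 mismatches were kept. Whether the 2 libraries of a culture and antibody were pooled is not given in the sources used here. Read counts were not used here and depth is unknown, so the lists' lengths alone bear on precision. The 4 input libraries had no list of their own among those used. Of the LIF-ESC inputs, 1 is labelled chromatin without antibody and 1 genomic DNA.

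From these lists, overlapping H3K4me3 peaks of both cultures were merged (overlap of at least 1 bp), and Suz12 and H3K27me3 peaks were assigned within 1000 bp. Covered bases were bases of peaks in the region with 1000 bp on either side. Start sites came from curated RefSeq transcripts of GRCm38 within 1000 bp, and CpG and the E-box were counted in 1000 bp at the middle of a region. Members sharing over 50% of their 31-base words, on either strand, with another member were marked. A fold of 2 was used to describe differences. Shares have 95% Wilson intervals. No test was run, since each group had 1 list.

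Members named in the text were, by rule, the 10 with the most LIF-ESC H3K27me3 bases, the 10 with the largest increase and the 10 with the largest decrease, the 5 longest, the 5 highest-scoring without Myc-ESC H3K27me3, and the 5 with the largest Suz12 increase and decrease, beside members of the gene lists. Members and lists were chosen with earlier results of these data known. Python 3.11.15, numpy 2.4.6, scipy 1.17.1, pysam 0.24.0 and matplotlib 3.10.9 were used. The interval code was tested on simulated data, with 0 wrong of 10000 comparisons. Other settings tried were peaks scoring 100 or more, lists of equal length, other reaches and folds, and leaving out groups of members.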

Additional observations from a re-analysis of the deposited data

How the results depend on the processing

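Of 53 alternatives tried for shares of members, 33 gave a share within the counting interval of the reported one and 20 did not. The number of members was 89 with only peaks that score at least 100, 713 and 1116 with a reach of 0 and 5000 bp, and 800 to 876 under the others. The median CpG observed over expected was 0.62 at the strongest Suz12 peak and 0.57 over the whole region, both within 1 SD between members, and 0.70 to 0.72 otherwise. The share of members with Myc-ESC H3K27me3 (89.5%) was 55.2% with all lists cut to equal length per antibody, 54.5% with the Myc-ESC H3K27me3 list alone limited, and 84.7% with peaks required to overlap. The share with at least 2-fold more H3K27me3 bases (64.4%) was 49.4% at a score of at least 100, 32.3% with equal lists, 31.7% with the Myc-ESC list alone limited, 61.2% and 53.2% with a reach of 0 and 5000 bp, and 71.5% and 49.8% at a fold of 1.5 and 3. The share with at least 2-fold more Suz12 (17.9%) was 10.1% at the higher score, and 32.8% and 8.14% at a fold of 1.5 and 3. Myc-ESC H3K4me3 (96.4%) was at 88.8% at the higher score and 97.6% without members that share sequence. Protein-coding start sites (70.1%) were at 59.6% at the higher score, 65.0% with a reach of 5000 bp and 73.5% with start sites within 2500 bp. Homeobox start sites (7.80%) were at 10.1% at the higher score and 5.67% without the Hox clusters. The cause of these shifts was not tested, beyond the fewer peaks that the higher score and the limited lists keep. Limiting 1 list alone, and leaving out chromosome 8 or members that share sequence, were chosen after seeing the data.

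No paired analysis was possible because each culture and antibody has 1 peak list, and leaving out a replicate was not run for the same reason. Depth is unknown, so a missing peak says only that the caller listed none.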
